A study of Mus musculus with 9 samples.

Results

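The 9 genes described here are the exchange factors Vav1, Vav2 and Vav3, the small GTPases Rac1, Rac2, Rac3 and Rhog, and the effector kinases Pak1 and Pak2. They were taken by symbol from a table of 52381 genes measured by RNA sequencing in mouse lung, and each symbol occurred once. All 9 passed the filter on low values, 1 FPKM or more in no fewer than 4 libraries, as did 11817 genes in all. FPKM is the number of fragments scaled to gene length and to the size of the library, so it can be set side by side between genes. Every mouse had acute lung injury (ALI) from lipopolysaccharide (LPS), a bacterial outer-membrane component. The 4 lungs with injury alone are called LPS-ALI, and the 5 lungs of injured mice treated with trimethylamine N-oxide (TMAO), a metabolite derived from gut bacteria, are called TMAO. The sources used here do not give strain, age, sex, doses or times, and uninjured lungs were not analysed here. The title of the series places VAV3 and the cytoskeleton between TMAO and the pulmonary vascular barrier, which is the question these genes bear on.

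Vav proteins are switched on by tyrosine kinases downstream of immune receptors, integrins and growth factor receptors, and they load GTP onto Rac and RhoG. GTP-bound Rac binds the Pak kinases and the WAVE complex, which act on actin through Lim kinases, cofilin and the Arp2/3 complex. In endothelium, Rac activity is known to support cell junctions, and in neutrophils and macrophages Rac2 serves migration and the phagocyte oxidase. Vav proteins and GTPases act through their activation state, which mRNA levels do not measure.

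The libraries set limits on every value below. The spacing of low FPKM values, read with exon lengths of GENCODE M21, gave an estimate of 5451000 to 14596000 fragments a library, the least in TMAO replicate 5. That library also held 8846 genes at 1 FPKM or more (11158 to 12239 in the other 8), and 52.2% of its FPKM came from the mitochondrial genome (33.4% to 49.3% in the others). LPS-ALI replicate 4 had the lowest endothelial and alveolar type 2 marker scores of the 9 libraries, 1.54 and 2.03 log2 units above the median gene. LPS-ALI replicates 3 and 4 carry library codes starting with X, while the remaining 7 carry B codes. No TMAO library is X-coded, and the meaning of the codes is not known. The labels name lung, while the wording of the extraction protocol names platelets. Platelet markers summed to 20.2 to 82.3 FPKM over the 9 libraries and alveolar type 2 markers to 1295 to 14803. In bulk tissue, fewer cells of a type and less RNA per cell cannot be told apart.

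None of the 9 genes differed between the groups by limma with Benjamini-Hochberg adjustment over the 11817 genes (limma adjusted p = 0.998 for each). Over all genes 0% passed that threshold as well, and the smallest limma adjusted p of any gene was 0.382. At an unadjusted limma p under 0.05 the count was again 0 of 9, where 3.35% of all genes passed. The exact permutation test over the 9 libraries gave 0 of 9 at p under 0.05, against 4.05% of all genes. Vav3 had the highest difference of the 9, 0.58 ± 0.33 (SE) on the log2(FPKM + 1) scale, and Rac3 and Pak1 the lowest, -0.60 ± 0.45 and -0.57 ± 0.32. The groups overlapped for all 9 genes, and 1.48% of all genes had no overlap. By the mean of log2(FPKM + 1), 2 of the 9 were higher in TMAO lungs and 7 lower, where 27.9% of all genes were higher. The mean FPKM of Vav2 was also slightly higher in TMAO lungs (1.51 against 1.43), although its mean log2 value was lower. The median tested gene was itself shifted by -0.17, and the median of the 9 genes was -0.28, or -0.11 relative to that shift.

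**Figure D1:**
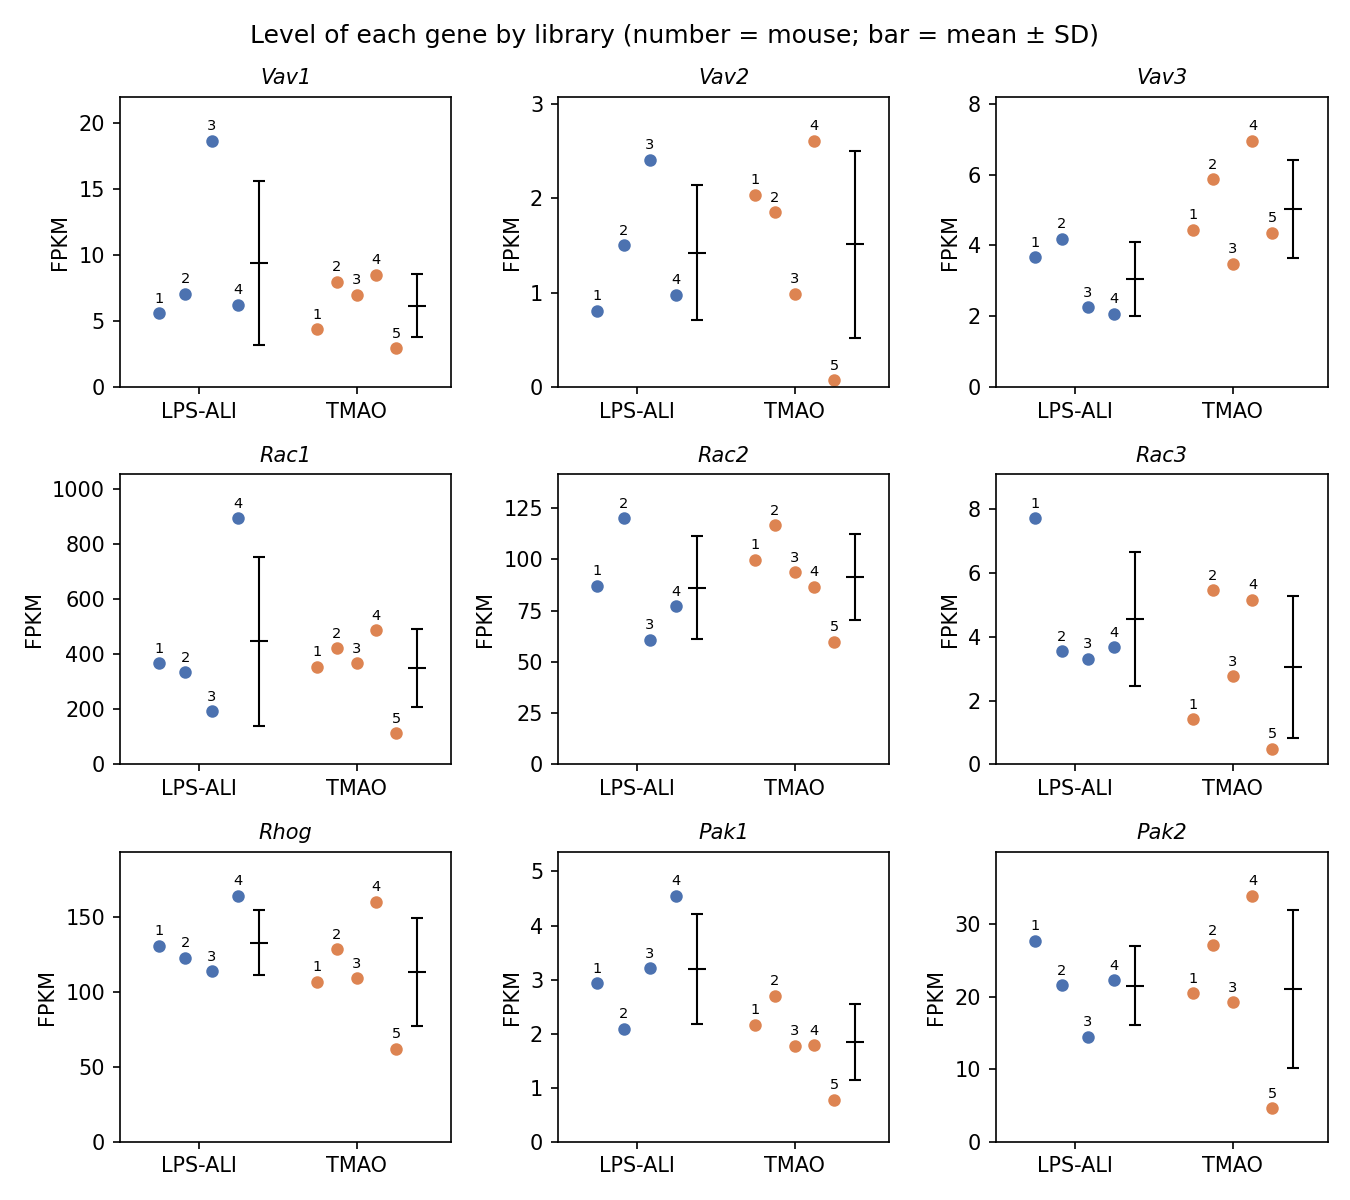
Level of each gene in FPKM (vertical axis, linear from 0) in the 4 LPS-ALI and 5 TMAO libraries. Points are libraries with the mouse number, and black bars are the mean ± SD. TMAO replicate 5 is the lowest library for 8 of the 9 genes, Vav3 excepted, and the groups overlap in every panel.

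The 9 genes spanned a wide range of levels. Averaged over the 9 libraries, the order was Rac1 (393 FPKM), Rhog (122), Rac2 (89.1), Pak2 (21.3), Vav1 (7.59), Vav3 (4.15), Rac3 (3.73), Pak1 (2.44) and Vav2 (1.47). Rac1 exceeded Rhog, Rhog exceeded Rac2 and Rac2 exceeded Pak2 in 9 of 9 libraries, although Rhog and Rac2 lay as close as 1.03-fold in 1 library. Pak2 exceeded Vav1 and Pak1 exceeded Vav2 in 8 of 9. The middle of the order was not resolved beyond the spread, since Vav1 exceeded Vav3 in 7 of 9 libraries, Vav3 exceeded Rac3 in 6 and Rac3 exceeded Pak1 in 6.

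The start regions of Vav1 and Vav3 are shown because these 2 paralogues had different shares of the family in the libraries, as described further on. The letters come from the RefSeq promoter table on GRCm38.p6 and stop before the first annotated base of the transcript, and capitals mark the ETS core GGAA on either strand (TTCC on the printed strand). The Vav1 stretch is chr17:57278850-57279099 and the Vav3 stretch chr3:109340433-109340652, both on the plus strand.
Vav1: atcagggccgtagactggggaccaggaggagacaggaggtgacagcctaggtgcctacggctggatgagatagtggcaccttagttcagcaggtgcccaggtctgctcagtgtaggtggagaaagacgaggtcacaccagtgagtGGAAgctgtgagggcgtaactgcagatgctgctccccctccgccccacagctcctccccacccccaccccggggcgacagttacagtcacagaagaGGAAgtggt
Vav3: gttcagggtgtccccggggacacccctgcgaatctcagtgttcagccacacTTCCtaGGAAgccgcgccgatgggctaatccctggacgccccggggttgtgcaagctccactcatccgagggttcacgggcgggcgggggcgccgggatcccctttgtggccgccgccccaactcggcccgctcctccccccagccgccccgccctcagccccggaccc
Both stretches held 2 matches of GGAA, which 93.4% of all promoters of that length hold at least once for Vav1 and 91.1% for Vav3. The Vav1 stretch also held 1 match of GAGGAA, the form bound by the blood-cell ETS factor PU.1, which overlaps its second GGAA match and is found on either strand in 23.3% of promoters. The stretch of Vav2 is not printed because its RefSeq start lies away from the GENCODE start. It held 1 match of GAGGAA as well and 6 of GGAA, a number that 8.69% of promoters reach, so the GAGGAA match is not particular to Vav1. The Vav3 stretch held 0 matches of GAGGAA and 20 CG dinucleotides, more than 87.2% of promoters, while Vav1 held 7. TGTGGT, the RUNX motif, and TATAAA, the TATA box, were found 0 times on either strand in both stretches (14.0% and 12.4% of promoters of 250 bases hold them). A match is a description of these letters and not a bound site.

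Vav3, the broadly expressed family member named in the title, lies on chromosome 3 from 109340653 to 109685698 of GRCm38. RefSeq gives it 3 start sites, the third at 109574007 inside the gene, and a value per gene does not separate the transcripts that begin there. In LPS-ALI replicates 1 to 4 its level was 3.67, 4.19, 2.25 and 2.07 FPKM. In TMAO replicates 1 to 5 it was 4.44, 5.88, 3.49, 6.96 and 4.36 FPKM. Thus 4 of 5 TMAO lungs lay above every LPS-ALI lung, TMAO replicate 3 lay inside the LPS-ALI range, and both X-coded libraries lay below all other 7. The estimated number of fragments on Vav3 was 133 to 378 a library, a counting error of 5.14% to 8.66%, so counting was small beside the spread between mice.

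The log2 difference of Vav3 was 0.58 ± 0.33 (SE), larger than that of 97.5% of the 11817 genes, and the exact permutation p was 0.0556 (two-sided, as throughout). With each library centred on its median gene the difference was 0.76 and the exact permutation p 0.0317, a threshold that 8.61% of all genes passed under that centring. On the centred scale Vav3 lay 0.50 to 1.36 log2 units below the median gene in LPS-ALI lungs. In TMAO replicates 1 to 4 it lay 0.24 to 0.68 units below the median gene, and in replicate 5 it lay 0.68 above, because the median gene of that library was itself low (1.74 on the log2 scale, 2.74 to 3.35 in the other libraries). Without the X-coded libraries the uncentred difference of Vav3 was 0.26, and 0.48 relative to the median gene. With library weights, which gave TMAO replicate 5 and LPS-ALI replicate 4 the lowest weights, 0.0879 and 0.340, it was 0.22. The genes whose centred pattern over the 9 libraries was most like that of Vav3 were Tspan17 (Pearson r = 0.973), Fzd6 (0.965), Zbtb34 (0.964), Acy3 (0.964) and Prdm1 (0.962), picked as the highest of all tested genes. These likenesses include the high centred value in TMAO replicate 5.

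Vav1, the family member of blood cells, lies on chromosome 17 from 57279100 to 57328031. It had 5.60, 7.06, 18.65 and 6.24 FPKM in LPS-ALI replicates 1 to 4, and 4.39, 7.98, 7.00, 8.49 and 2.94 in TMAO replicates 1 to 5. LPS-ALI replicate 3 stood alone at the top, on an estimated 943 fragments, and the other 8 libraries lay between 2.94 and 8.49. Its log2 difference was -0.46 ± 0.42 (SE), with an exact permutation p of 0.357. Without LPS-ALI replicate 3 it was -0.099, and 0.13 relative to the median gene, so its direction against other genes rested on that library. The patterns most like Vav1, which share this high value, were those of Gfm2 (r = 0.986), Map11 (0.975), Cntrob (0.970), Cep131 (0.961) and Tmc6 (0.953). Markers of blood-derived cells were also lower on average in TMAO lungs. Of 12 such markers 0 lay above the median gene, none passed the limma threshold, and none was at 0 in any library. Their sum was 953 to 1163 FPKM among LPS-ALI mice and 577 to 931 in TMAO lungs. Platelet markers summed to 35.0 to 82.3 and 20.2 to 30.6 FPKM, with 0 of 5 tested above the median gene and Gp1ba, Itga2b and Treml1 at 0 in at least 1 library. T and NK cell markers summed to 25.8 to 60.4 and 10.4 to 19.8 FPKM, with 1 of 5 tested above the median gene and Cd3d, Trac, Nkg7 and Ncr1 at 0 in at least 1 library. None of these 3 sums overlapped between the groups, although the scores of all 3 lists, centred on the median gene, did overlap. Among all single genes, 1.36% had groups that did not overlap with TMAO lower, and 27.9% were higher in TMAO lungs. Neutrophil markers summed to 7937 to 21070.5 and 7844 to 14786 FPKM, with 4 of 10 tested above the median gene. Monocyte and macrophage markers summed to 795 to 3845 and 1366 to 2933 FPKM, with 4 of 8 above it. B cell markers summed to 4.23 to 6.64 and 1.51 to 5.10 FPKM, with 0 of 1 above it. These last 3 sums overlapped, and the part of blood cells in the values of Vav1 was not tested.

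Vav2, a broadly expressed exchange factor on chromosome 2 (27262104 to 27427033, minus strand), had the lowest level of the 9. It had 0.81, 1.5, 2.41 and 0.98 FPKM in LPS-ALI lungs and 2.04, 1.85, 0.99, 2.61 and 0.07 in TMAO lungs. The value of 0.07 in TMAO replicate 5 corresponds to about 2.55 fragments, so it carries a counting error of 62.6%. Without that library the log2 difference of Vav2 was 0.26, in place of -0.022.

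Within a library, the make-up of the Vav family does not depend on how libraries are scaled. Vav3 made up 36.4%, 32.9%, 9.65% and 22.3% of the summed Vav FPKM in LPS-ALI replicates 1 to 4. The shares were 40.8%, 37.4%, 30.4%, 38.5% and 59.2% in TMAO replicates 1 to 5. Vav1 had the largest share in all 4 LPS-ALI lungs and in TMAO replicates 2, 3 and 4, and Vav3 in TMAO replicates 1 and 5. The ratio of Vav3 to Vav1 was 0.121 to 0.655 in LPS-ALI lungs and 0.499 to 1.48 in TMAO lungs, with 4 of 5 TMAO lungs above every LPS-ALI lung. This pair was looked at with earlier results known and was not tested. The difference in log2 ratio was 1.27, and 0.45 without the X-coded libraries, which had the 2 lowest ratios. Leaving out LPS-ALI replicate 3 alone gave 0.76.

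**Figure D2:**
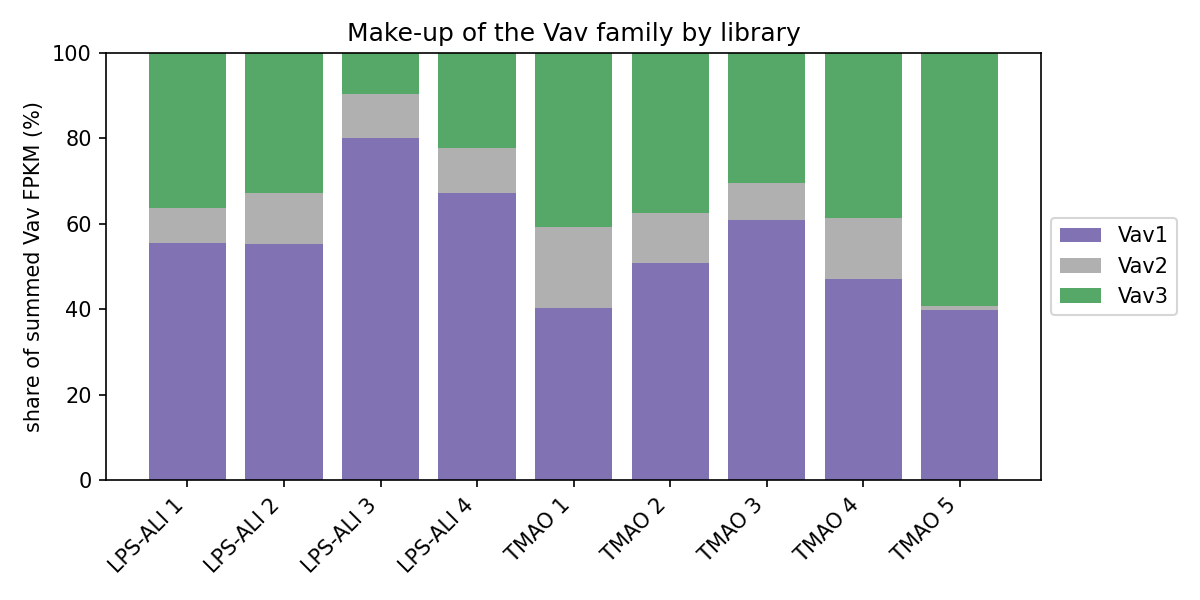
Share of each Vav gene in the summed Vav FPKM (vertical axis, percent) of each library (horizontal axis). Vav3 holds 9.65% to 36.4% in LPS-ALI and 30.4% to 59.2% in TMAO libraries, and the Vav2 band nearly vanishes in TMAO replicate 5.

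Among the GTPases, Rac1, the ubiquitous family member and main actin regulator, is on chromosome 5 (143503634 to 143528036, minus strand). It had 367.91, 335.21, 193.70 and 894.39 FPKM in LPS-ALI replicates 1 to 4. In TMAO lungs it had 355.47, 421.51, 368.82, 488.59 and 112.66 FPKM. LPS-ALI replicate 4 was highest and TMAO replicate 5 lowest, while TMAO replicates 1 to 4 stayed between 355.47 and 488.59. On the log2 scale the difference was -0.28 ± 0.46 (SE, exact permutation p = 0.690). Its sign turned without either of those 2 libraries, to 0.12 with LPS-ALI replicate 4 left out and 0.084 with TMAO replicate 5 left out, and it was 0.49 without both. The exons of Rac1 overlap those of Daglb on the opposite strand over 2309 bases. No strand setting is given, so reads from these shared bases cannot be told apart, and how they were counted is not known. Daglb was at 0.08 to 0.48 FPKM.

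Rac2, the haematopoietic Rac (chromosome 15, 78559167 to 78572783, minus strand), had 87.22, 120.07, 60.74 and 77.14 FPKM in LPS-ALI lungs. In TMAO lungs it had 99.88, 116.82, 93.73, 86.73 and 59.91 FPKM. All TMAO lungs but replicate 5 lay inside the LPS-ALI range. The log2 difference was 0.09 ± 0.32 (SE), with an exact permutation p of 0.714, and -0.19 without the X-coded libraries. Relative to the median gene it was 0.26, and 0.024 without the X-coded libraries. Among the members Rac2 and Vav1 are the blood-cell genes, and their centred patterns had r = -0.23 over the 9 libraries, a description only. The patterns most like Rac2 were those of Zfp119a (r = 0.935), Nat2 (0.931), Mettl18 (0.929), Rd3 (0.919) and Gm19696 (0.908). Rac1 exceeded Rac2 in every library, by 2.79-fold to 11.6-fold in LPS-ALI lungs and 1.88-fold to 5.63-fold in TMAO lungs. The value of 11.6 belonged to LPS-ALI replicate 4, and without it the log2 difference in this ratio went from -0.38 to 0.069.

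Rac3, known mainly from the nervous system, is on chromosome 11 (120721470 to 120723969). It had 7.72, 3.56, 3.31 and 3.67 FPKM among LPS-ALI mice and 1.41, 5.47, 2.76, 5.17 and 0.49 in TMAO lungs. LPS-ALI replicate 1 was the highest, and TMAO replicates 1, 3 and 5 lay below every LPS-ALI lung. Its log2 difference was -0.60 ± 0.45 (SE, exact permutation p = 0.302), on an estimated 2.87 to 59.4 fragments a library, the fewest being in TMAO replicate 5. Without LPS-ALI replicate 1 the difference was -0.36, and without TMAO replicate 5 it was -0.29.

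Rhog, the RhoG GTPase that Vav proteins also load and that acts upstream of Rac through Elmo and Dock, is on chromosome 7 (102239123 to 102256054, minus strand). It had 131.24, 123.17, 114.00 and 164.45 FPKM among LPS-ALI mice and 106.92, 128.58, 109.56, 160.43 and 62.15 in TMAO lungs. TMAO replicates 1, 3 and 5 lay below every LPS-ALI lung, and replicates 2 and 4 inside the range. On the log2 scale the difference was -0.28 ± 0.32 (SE, exact permutation p = 0.357), or -0.11 relative to the median gene. The ratio of Rac1 to Rhog was 3.05 to 3.37 in TMAO replicates 1 to 4, 1.81 in replicate 5, and 1.70 to 5.44 in LPS-ALI lungs. The mean log2 ratios of the groups, 1.53 and 1.53, were alike, with SDs of 0.69 (n = 4) and 0.38 (n = 5).

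**Figure D3:**
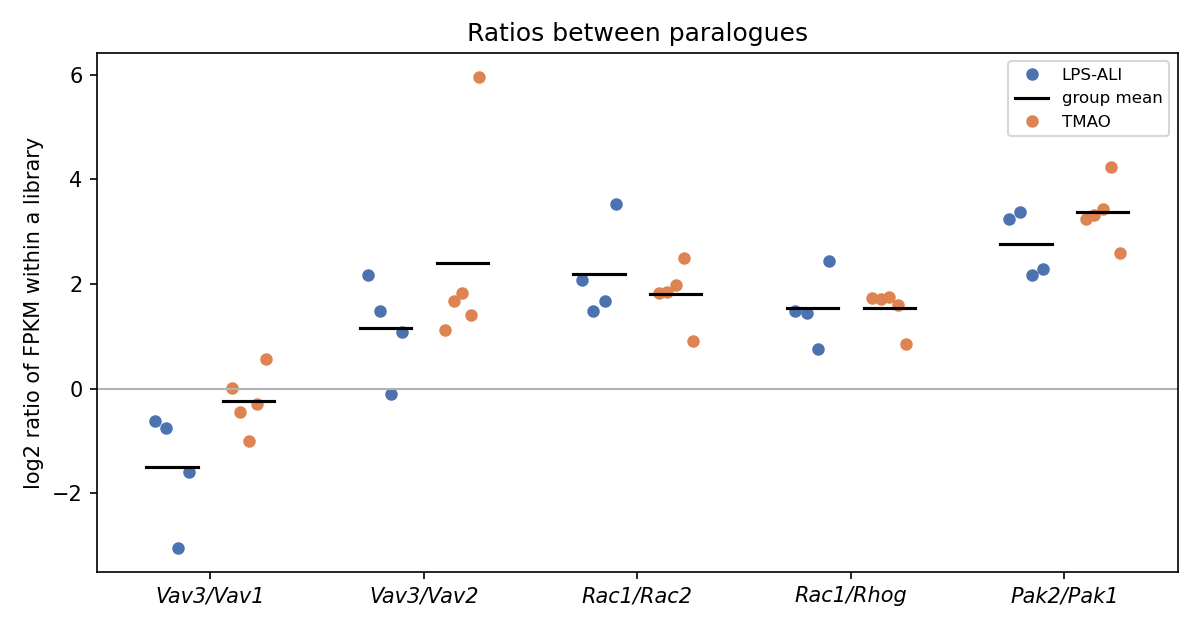
Log2 of the ratio of 2 genes' FPKM within each library (vertical axis) for 5 pairs (horizontal axis), with points for libraries and black lines for group means. For Vav3/Vav1, 4 of 5 TMAO points lie above all LPS-ALI points; the point near 6 for Vav3/Vav2 is TMAO replicate 5.

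Of the effector kinases, Pak1, a Rac-activated kinase that acts on Lim kinase and on cell contraction, is on chromosome 7 (97788541 to 97912381). It had 2.93, 2.09, 3.21 and 4.55 FPKM among LPS-ALI mice and 2.17, 2.70, 1.78, 1.79 and 0.78 in TMAO lungs. TMAO replicates 3, 4 and 5 lay below every LPS-ALI lung, and the highest values were in LPS-ALI replicates 4 and 3, the X-coded libraries. The log2 difference was -0.57 ± 0.32 (SE), with an exact permutation p of 0.0556, -0.33 without the X-coded libraries, and -0.27 without LPS-ALI replicate 4 and TMAO replicate 5. Relative to the median gene it was -0.40, or -0.12 without the X-coded libraries and -0.36 without LPS-ALI replicate 4 and TMAO replicate 5.

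Pak2, the more widely expressed kinase of the pair, is on chromosome 16 (32016290 to 32079342, minus strand). It had 27.72, 21.55, 14.50 and 22.28 FPKM among LPS-ALI mice and 20.44, 27.06, 19.27, 33.89 and 4.68 in TMAO lungs. TMAO replicate 5 was the lowest and TMAO replicate 4 the highest, and the other 3 TMAO lungs lay inside the LPS-ALI range. Its log2 difference was -0.22 ± 0.47 (SE, exact permutation p = 0.825), and 0.22 without TMAO replicate 5. Pak2 exceeded Pak1 in every library, by 4.52-fold to 10.3-fold in LPS-ALI lungs and 6.00-fold to 18.9-fold in TMAO lungs. The log2 ratio differed by 0.60 between the groups, and by 0.061 without the X-coded libraries, which held the 2 lowest ratios.

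**Figure D4:**
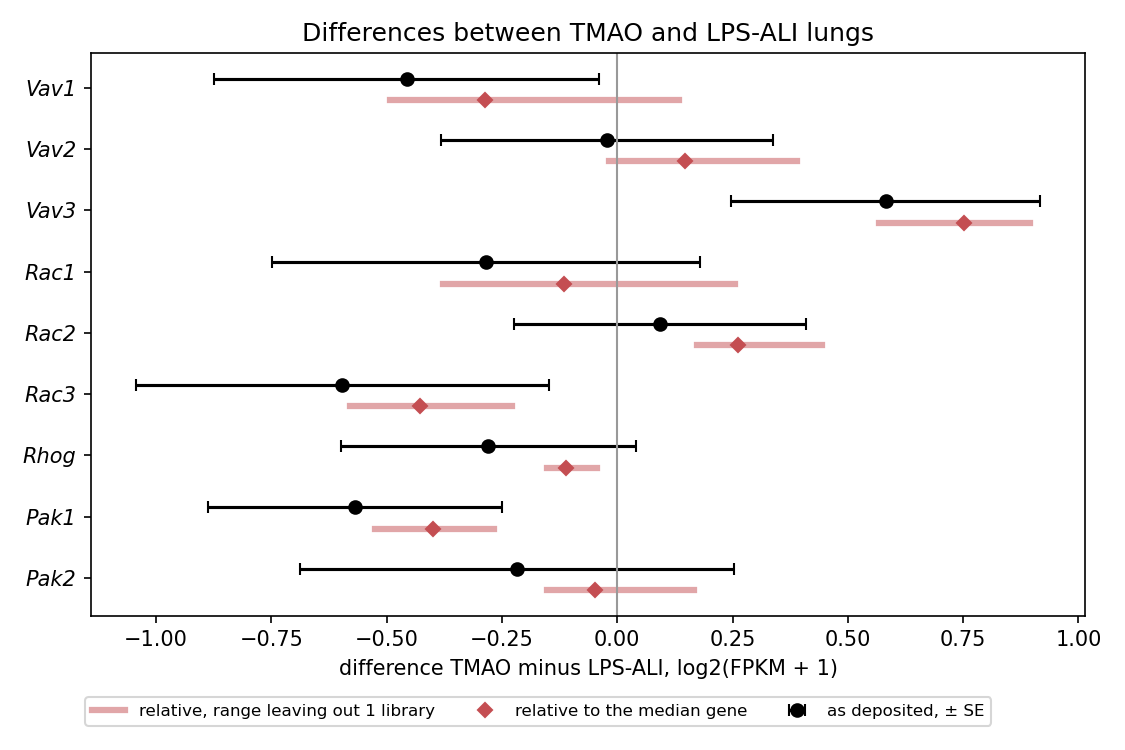
Difference between TMAO and LPS-ALI lungs on the log2(FPKM + 1) scale (horizontal axis) for each gene (vertical axis). Black points are as deposited with the SE, red diamonds are relative to the median gene, and red bands give the range when 1 library is left out. The Vav3 and Rac2 bands, 0.57 to 0.89 and 0.17 to 0.44, are above 0, those of Rac3, Rhog and Pak1 are below 0, and those of Vav1, Vav2, Rac1 and Pak2 cross it.

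TMAO replicate 5 was the lowest library for 8 of the 9 genes, Vav3 being the exception, and for 74.3% of all tested genes. The highest library was LPS-ALI replicate 4 for Rac1, Rhog and Pak1, a place it held for 26.9% of all genes.

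Since Vav1 and Rac2 are genes of blood cells and the title of the series concerns the vessel wall, each gene was set against a score of 12 haematopoietic and a score of 12 endothelial markers over the 9 libraries. All values were centred on the median gene of the library. None of these 18 relations held after Benjamini-Hochberg adjustment. By Pearson r the strongest were with the endothelial score. By Spearman's coefficient Rac1 (-0.68, exact permutation p = 0.0503, adjusted 0.416) and Rac3 (0.60, exact permutation p = 0.0968, adjusted 0.416) with the haematopoietic score came before Rhog. So did Pak1 with the haematopoietic score (0.55, exact permutation p = 0.133, adjusted 0.416). Pak2 with the endothelial score did as well (0.62, exact permutation p = 0.0857, adjusted 0.416). For Pak1 and the endothelial score, Pearson r was -0.76 (exact permutation p = 0.0235, adjusted 0.212) and Spearman's coefficient was -0.78 (exact permutation p = 0.0172, adjusted 0.310). For Rhog, r was -0.83 (exact permutation p = 0.0191, adjusted 0.212) and Spearman's coefficient was -0.52 (exact permutation p = 0.162, adjusted 0.416). LPS-ALI replicate 4 and TMAO replicate 4 were the libraries farthest from the median endothelial score. Without them r was -0.52 for Pak1 and -0.34 for Rhog, and within the 7 B-coded libraries it was -0.59 and -0.39. For Pak2, r with this score was 0.28 (exact permutation p = 0.401, adjusted 0.670), 0.74 without them and 0.70 within the B-coded libraries. For Rac1 it was -0.59 (exact permutation p = 0.140, adjusted 0.638), 0.75 and 0.52 in the same order.

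Vav3 had a Pearson r of 0.50 and a Spearman coefficient of 0.52 with the endothelial score (exact permutation p = 0.177 and 0.162, adjusted 0.638 and 0.416). Without the 2 farthest libraries r was 0.011, and within the B-coded libraries it was -0.34. Both of these readings leave out LPS-ALI replicate 4, and the relation did not hold in either. With the haematopoietic score Vav3 had r = 0.0018 and Vav1 had r = 0.42 (exact permutation p = 0.996 and 0.261, adjusted 0.996 and 0.647), and Spearman's coefficients were -0.22 and 0.17 (exact permutation p = 0.581 and 0.678, adjusted 0.938 for both). For Vav1 r was 0.30 without LPS-ALI replicate 3 and TMAO replicate 3, and -0.038 within the B-coded libraries. Of the 12 endothelial markers 9 lay above the median gene, 0 passed the limma threshold and none was at 0 in any library. Their sum was 780 to 1904 FPKM among LPS-ALI mice and 801 to 2788 in TMAO lungs.

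The rest of the pathway was read from 6 lists with 88 genes, of which 76 were tested. By limma 0 of 76 passed the adjusted threshold (0% of all genes) and 1 had an unadjusted p under 0.05, where 3.35% of all genes did. That gene was Arhgdig, a dissociation inhibitor that holds GTPases inactive. Relative to the median gene 36 of the 76 were higher and 40 lower. Arhgdig had 2.58, 2.14, 3.79 and 7.63 FPKM among LPS-ALI mice and 0.50, 1.23, 0.75, 1.82 and 1.79 in TMAO lungs, and the groups did not overlap (log2 difference -1.11 ± 0.35, limma adjusted p = 0.998). Groups that did not overlap with TMAO lower made up 1.36% of all genes.

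Among genes that act with Vav, 4 of 16 tested lay above the median gene, and their median relative difference was -0.10. Btk, a kinase of B and myeloid cells, had 2.16 to 2.97 FPKM among LPS-ALI mice and 0.39 to 1.86 in TMAO lungs, and the groups did not overlap. Lcp2, the SLP-76 adaptor that binds Vav1, had 8.16 to 15.83 and 2.77 to 12.82 FPKM. Plcg1, the phospholipase that Vav-coupled receptors engage, had 3.35 to 8.99 and 2.24 to 21.60 FPKM. Its 4 highest values were in TMAO replicates 1 to 4, and its lowest in replicate 5.

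Of other Rac exchange factors 11 of 19 lay above the median gene, with a median relative difference of 0.13. Tiam1, an exchange factor of junctions, had 1.45 to 9.69 FPKM among LPS-ALI mice and 0.28 to 8.24 in TMAO lungs. Dock5, an exchange factor of the Dock family, had 1.29 to 1.58 and 0.67 to 1.51 FPKM. Sos2, which also serves Ras, had 8.06 to 15.50 and 9.23 to 22.38 FPKM. GTPase-activating proteins and dissociation inhibitors were split 6 and 6, with a median of -0.044. Beside Arhgdig, the activating protein Arhgap15 had 1.56 to 2.77 and 0.31 to 2.45 FPKM, and the blood-cell inhibitor Arhgdib had 62.44 to 158.35 and 61.02 to 100.87 FPKM.

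Downstream of Rac, 7 of 10 WAVE complex genes and 2 of 9 Arp2/3 genes lay above the median gene, with median relative differences of 0.18 and -0.11. In the WAVE complex Wasf3 had 0.86 to 3.11 FPKM among LPS-ALI mice and 1.28 to 7.28 in TMAO lungs, while Nckap1l, its blood-cell subunit, had 6.31 to 9.96 and 1.28 to 7.60. Abi3, an Abi subunit, had 12.01 to 26.05 and 13.17 to 52.16 FPKM. For Arp2/3, Actr3 had 103.54 to 196.79 and 29.62 to 146.41 FPKM, with the lowest value in TMAO replicate 5. The subunit Arpc4 had 78.68 to 157.55 and 32.05 to 136.02 FPKM, and Arpc5 had 138.82 to 276.13 and 65.93 to 187.96 FPKM. Among Pak partners 6 of 10 lay above the median gene, with a median of 0.064. Limk2, a Lim kinase that phosphorylates cofilin, had 6.86 to 18.68 FPKM among LPS-ALI mice and 1.78 to 9.73 in TMAO lungs. The cofilin phosphatase Ssh3 had 2.29 to 5.55 and 0.48 to 3.68 FPKM, and Cfl1, cofilin itself, had 396.03 to 611.99 and 205.05 to 618.45 FPKM. The median of all tested genes is 0 on this relative scale, and none of the lists was tested as a set.

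**Figure D5:**
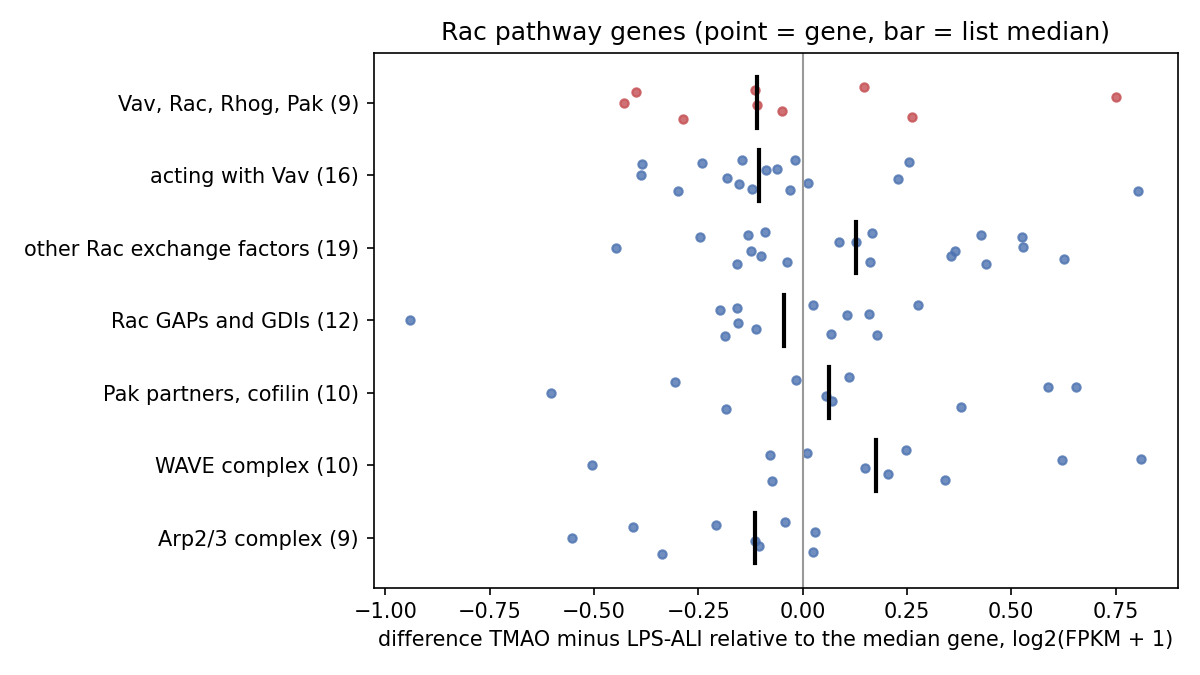
Difference between TMAO and LPS-ALI lungs relative to the median gene, on the log2(FPKM + 1) scale (horizontal axis), for the 9 genes and the tested genes of 6 pathway lists (vertical axis, number tested in brackets). Points are genes and black bars are list medians, which lie between -0.11 and 0.18.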

How the data were processed

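Lung RNA from 9 mice was sequenced after ribosomal RNA depletion. The values are FPKM made by the authors and deposited with 2 decimals, 1 column per library. Per the submitters' processing notes, fastp, HISAT2, SAMtools and featureCounts were used on mm10. The sources used here do not give versions, annotation, strand setting or gene lengths. Groups and mouse numbers come from the sample titles.

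FPKM are not counts, so log2(FPKM + 1), which understates differences of low genes, was tested with limma 3.58.1 (R 4.3.3, mean-variance trend, two-sided), with Benjamini-Hochberg adjustment over 11817 genes and a threshold of 0.05. For single genes an exact permutation test over libraries (two-sided, unadjusted) was added, whose smallest possible p is 0.00794. The titles name a separate mouse for each library. Differences are TMAO minus LPS-ALI, and relative ones subtract the shift of the median gene. A marker score is the mean log2 value of a list minus the median gene of the library. Members, lists and ratios were chosen with earlier results of these data known. Named genes are the 9 members, up to 3 with the smallest p per pathway list, and the 5 most like Vav3, Vav1 and Rac2.

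Fragments were estimated from the steps between low FPKM values, with GENCODE M21 exon lengths less 216 to 228 bases. With these, 60.6% to 68.1% of low values came within 0.1 of a whole fragment. The estimate assumes that the authors' gene lengths match, and its errors cover counting only. In simulated data of 11817 genes, limma called 6% of genes shifted by 1 unit of log2(FPKM + 1), 75% of those shifted by 2 units and 4 unchanged genes. For low genes these shifts stand for more than 2-fold and 4-fold changes in FPKM. The simulated noise was independent between genes, with the same spread in every library. The real libraries had weights of 0.0879 to 5.03, so these rates need not hold for them. The titles do not state that mouse numbers pair the samples, so the main fit holds no block for them. One pathway list, and 1 gene of another, are not reported here.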

Additional observations from a re-analysis of the deposited data

Results flagged for a closer look

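Of 28 checks of a group for 1 library far from the rest, 4 stood out. About 1 in 20 groups would be marked by chance if values were normal and independent. Genes were checked on the linear FPKM scale and the ratios reuse the same genes, so this rate is only a rough guide. Vav1 in LPS-ALI replicate 3 had 18.65 FPKM, with a gap to the next library of 0.888 of the group's range. Rac3 in LPS-ALI replicate 1 had 7.72 FPKM (gap 0.918 of the range). The other two were log2 ratios in TMAO replicate 5, 5.96 for Vav3 to Vav2 (gap 0.856) and 0.86 for Rac1 to Rhog (gap 0.838). The first of these ratios rests on an estimated 2.55 fragments of Vav2.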

How the results depend on the processing

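Under 19 or 20 alternatives per gene, 0 of the 9 genes passed the limma threshold. Vav3 (0.22 to 0.77), Vav1 (-0.62 to -0.099), Rac3 (-0.89 to -0.29) and Pak1 (-0.81 to -0.14) kept their sign in all of them. These signs do not subtract the shift of the median gene. Relative to the median gene, Vav1 lay above 0 in 2 of 20 alternatives (-0.49 to 0.13) and Rhog in 0 of 20 (-0.23 to -0.0087). On that scale Vav3 lay above 0 in 19 of 19, Rac2 in 19 of 20 (-0.035 to 0.44) and Vav2 in 16 of 19 (-0.047 to 0.39). Rac1 and Pak2 each lay above 0 in 6 of 20, and Rac3 and Pak1 in 0 of 19. Unless stated, the values below again do not subtract that shift. Vav2 turned positive under quantile normalization (0.058), median centring (0.15), library weights (0.094) and without the X-coded libraries (0.12), and ranged from -0.18 to 0.26 with 1 library left out. Rac1 turned with library weights (0.16) and ranged from -0.61 to 0.12 with 1 library left out. Rac2 turned negative with library weights (-0.060) and without the X-coded libraries (-0.19), and ranged from -0.060 to 0.26. Relative to the median gene, Rac2 was at -0.035 with library weights and 0.024 without the X-coded libraries. Pak2 turned positive under quantile normalization (0.019) and library weights (0.0084), and ranged from -0.44 to 0.22. Without LPS-ALI replicate 4 and TMAO replicate 5 together, added after the data were seen, Vav2, Rac1, Rhog and Pak2 turned to 0.17, 0.49, 0.024 and 0.24. Rhog ranged from -0.42 to -0.081 with 1 library left out. The log2 ratio Rac1/Rac2 turned to 0.034 without the X-coded libraries and 0.29 without that pair (-0.62 to 0.069 with 1 left out), and Rac1/Rhog to 0.067 and 0.47 (-0.26 to 0.30).

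With the mouse number as a replicate block, Vav2, Rac1 and Pak2 turned to 0.26, 0.084 and 0.22, and 0 genes were called. These equal the values without TMAO replicate 5, which is alone in its block. Deviations of same-numbered mice correlated at 0.06, -0.01, -0.03 and -0.13. Limma called 0 of 11817 genes (396 at an unadjusted p under 0.05), 51 with library weights and 0 to 3 with 1 library left out, with 3 calls when TMAO replicate 4 was out and 1 when LPS-ALI replicate 3 was out. The cause was not tested. The unadjusted calls were 50 higher and 346 lower as deposited, 362 and 437 with median-of-ratios scaling, 441 and 450 under quantile normalization, and 504 and 345 without TMAO replicate 5. A filter on a mean of 5 FPKM leaves out Vav2, Vav3, Rac3 and Pak1. Depth limits Vav2, Rac3 and Pak1 in TMAO replicate 5, with an estimated 2.55, 2.87 and 15.8 fragments.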
